A study of Mus musculus with 13 samples.

Results

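The proteasome genes were taken as the rows whose symbol starts with Psma, Psmb, Psmc, Psmd, Psme, Psmf or Psmg. There were 47 of these among 12963 listed genes, and all 47 passed the filter on low values. Of these, 45 encode subunits, activators, regulators or assembly chaperones of the proteasome. The other two were Psmc3ip, a meiotic recombination factor that shares the prefix, and Psme2b, a near-identical copy of Psme2. Psmb9, Psma8 and Psmb11 are not analysed here.

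Adult mice of the Foxp3-EGFP-DTR strain bore subcutaneous tumors of B16-F10, a melanoma line of the mouse, from which T cells were sorted. All groups carried this allele, which puts EGFP and a receptor for diphtheria toxin (DTx) under the endogenous Foxp3 gene, so that the toxin kills Treg cells. Bulk RNA-seq gave 13 libraries. After control treatment with PBS there were Treg cells (Treg PBS, n = 3), CD4+ Tconv cells, the conventional T cells (CD4 PBS, n = 2), and CD8+ Tconv cells (CD8 PBS, n = 2). After Treg cell depletion there were the same Tconv cells (CD4 DTx, n = 3; CD8 DTx, n = 3). The titles number the replicates 1 to 3, and both PBS Tconv groups had only numbers 2 and 3. Neither age nor day is in the labels, and the labels do not say that libraries of a group came from separate animals, so p-values measure the spread between these libraries.

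The proteasome degrades proteins marked with ubiquitin. Its 20S core has outer rings of alpha subunits (Psma) and inner rings of beta subunits (Psmb), and its 19S cap has a base with ATPases (Psmc) and a lid (Psmd) that recognise, unfold and feed substrates. In the immunoproteasome, which lymphocytes express constitutively and interferon induces elsewhere, the catalytic subunits Psmb5, Psmb6 and Psmb7 are replaced by Psmb8, Psmb9 and Psmb10, and PA28, made of Psme1 and Psme2, can cap the core, which changes the peptides available to MHC class I.

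Upstream sequences are shown for the 4 genes called in a main comparison (Psmb8, Psma5, Psma1 and Psmd13) and for Psmb5, the constitutive counterpart of Psmb8. Each is the 250 bases before the RefSeq gene start on GRCm38.p6, written 5′ to 3′ in the direction of the gene, while the deposited values were made on mm9. The positions are chr17:34197945-34198194, plus strand for Psmb8, chr14:54617996-54618245, minus strand for Psmb5, chr3:108256676-108256925, plus strand for Psma5, chr7:114276117-114276366, minus strand for Psma1 and chr7:140882144-140882393, plus strand for Psmd13. Capitals mark matches to 4 motifs searched on both strands.
Psmb8: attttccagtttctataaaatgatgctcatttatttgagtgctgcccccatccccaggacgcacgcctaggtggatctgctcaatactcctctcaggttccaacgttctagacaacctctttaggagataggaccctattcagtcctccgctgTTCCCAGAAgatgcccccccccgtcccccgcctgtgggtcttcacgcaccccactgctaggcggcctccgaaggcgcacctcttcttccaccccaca
Psmb5: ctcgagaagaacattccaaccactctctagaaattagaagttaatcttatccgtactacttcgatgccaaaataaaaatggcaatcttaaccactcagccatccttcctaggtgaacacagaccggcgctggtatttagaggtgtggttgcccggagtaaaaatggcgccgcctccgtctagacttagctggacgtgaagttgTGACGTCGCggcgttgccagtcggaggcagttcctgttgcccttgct
Psma5: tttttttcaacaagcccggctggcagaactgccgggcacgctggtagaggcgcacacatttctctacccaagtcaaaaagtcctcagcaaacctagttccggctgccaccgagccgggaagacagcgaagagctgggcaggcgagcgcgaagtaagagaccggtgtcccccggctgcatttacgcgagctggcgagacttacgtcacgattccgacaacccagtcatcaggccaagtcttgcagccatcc
Psma1: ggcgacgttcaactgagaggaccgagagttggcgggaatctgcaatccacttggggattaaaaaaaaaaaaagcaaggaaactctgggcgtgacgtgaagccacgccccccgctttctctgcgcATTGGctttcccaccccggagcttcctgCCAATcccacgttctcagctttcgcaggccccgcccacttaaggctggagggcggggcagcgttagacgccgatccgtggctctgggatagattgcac
Psmd13: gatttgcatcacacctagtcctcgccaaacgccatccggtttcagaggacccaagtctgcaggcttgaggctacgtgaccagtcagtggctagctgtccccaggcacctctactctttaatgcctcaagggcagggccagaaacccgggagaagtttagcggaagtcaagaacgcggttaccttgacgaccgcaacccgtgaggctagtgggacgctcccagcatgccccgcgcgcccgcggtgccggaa
In Psmb8 the capitals are a gamma-activated site (TTCNNNGAA), an interferon-response motif. This motif was in 2 of the 40 matched members (Psmb8 and Psmg1) and in 7.02% of 32851 mouse promoter windows of the same length. In Psmb5 they are an antioxidant response element (TGACNNNGC), which was in 5 of 40 members (Psmb5, Psmb6, Psmc6, Psmd12 and Psmd9) and in 10.2% of windows. In Psma1 they are 2 CCAAT boxes (CCAAT), one on each strand, and 13 of 40 members held this motif against 33.8% of windows. The interferon-stimulated response element (GAAANNGAAA) was in 3 of 40 members (Psmb3, Psmd4 and Psmd9) and in 2.98% of windows. Psma5 and Psmd13 held none of the 4. A match describes the letters and is not evidence of binding.

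Values are read counts divided by 1 size factor per library, called normalized reads. Libraries held 15947556 to 34140486 recovered reads, and floors cover counting error only. Intervals, like the p-values, measure the spread between these libraries. Foxp3 ranged from 1178 to 1896 normalized reads in Treg PBS and from 0 to 12.1 elsewhere, and Cd4 and Cd8a followed the labels, although Cd8a reached 1302 in CD4 DTx. Cd3e, a CD3 chain of the T cell receptor complex, ranged from 20019 to 36295 in all libraries. Xist was at 0 and Y-linked genes were present in replicate 3 of every group, so these were the male libraries. Summed melanocyte markers (4 genes, Tyrp1 and Dct at 0 in some libraries) were 727 to 1197 normalized reads in Treg PBS, 435 to 448 in CD4 PBS, 171 to 629 in CD8 PBS, 89.0 to 170.2 in CD4 DTx and 60.7 to 125 in CD8 DTx. Summed myeloid markers (6 genes, Csf1r, Adgre1 and Cd14 at 0 in some) lay between 88.8 and 3525. Erythroid markers (3 genes, each at 0 in some) lay between 0 and 6570.2, highest in the male PBS Tconv libraries. The part of these transcripts in the results was not tested.

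The 47 genes together took 0.693% to 1.19% of the reads of a library. The share was 1.19, 1.12 and 0.792% in Treg PBS replicates 1, 2 and 3, 0.804 and 0.693% in CD4 PBS replicates 2 and 3, and 0.867 and 0.836% in CD8 PBS replicates 2 and 3. It was 1.03, 0.926 and 0.858% in CD4 DTx and 1.16, 1.11 and 0.814% in CD8 DTx replicates 1, 2 and 3. Both CD4 PBS libraries lay below all 3 CD4 DTx libraries, and the male replicate had the lowest share in each of the 5 groups. In Treg PBS and CD8 DTx that replicate lay well below the other two, at or below the level of the PBS CD8 libraries.

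**Figure D1:**
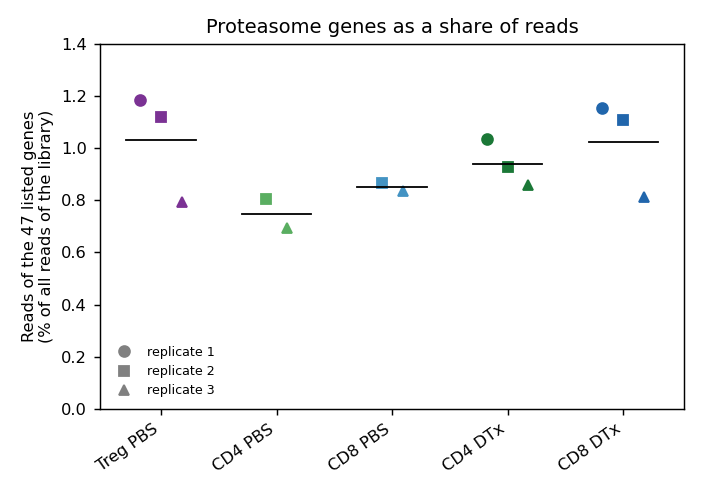
Reads of the 47 proteasome genes as a percentage of all reads of each library, by group, with points for libraries (shape gives the replicate number) and bars for group means. Replicate 3, the male library, is the lowest point of every group, from 0.693% in CD4 PBS to 0.858% in CD4 DTx.

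Most proteasome genes had a higher mean in Treg PBS than in CD4 PBS, but few passed the test. Psma5, an alpha-ring subunit, rose by 1.21 on the log2 scale, and Psma1, another alpha-ring subunit, by 1.04. After DTx, Psmb8 rose in CD4 Tconv cells, by 1.07, and the lid subunit Psmd13 rose in CD8 Tconv cells, by 0.82. No member fell in the limma test of any comparison. In bulk samples fewer cells with a transcript and less of it per cell cannot be told apart.

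A gene was called where the limma test on log2(value + 1) over all 13 libraries gave a Benjamini-Hochberg adjusted p under 0.05. Between Treg PBS and CD4 PBS, 2 of 47 members were called higher against 13.5% of the 12667 genes tested, and 0 lower against 6.91%. Between CD4 DTx and CD4 PBS, 1 was called higher (8.64% of all genes) and 0 lower (4.08%). Between CD8 DTx and CD8 PBS, 1 was called higher (7.4%) and 0 lower (3.47%). The share of members called was thus below the share of all genes in each. At an unadjusted p under 0.05 the members numbered 19 higher and 1 lower, 9 and 0, and 9 and 0 in the same order, where 34.7%, 26.3% and 26.3% of all genes passed in either direction. With edgeR 2, 1 and 1 members were called higher, against 10.9%, 7.81% and 6.25% of all genes. With DESeq2 11, 4 and 5 were called higher, against 16.6%, 12.4% and 10.8%, and Psme2b was called lower in Treg PBS.

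The members leaned to one side by small amounts. Their median log2 difference was 0.51 in Treg PBS against CD4 PBS, with 41 of 47 positive, where the median of all genes tested was 0.01. In CD4 DTx against CD4 PBS it was 0.32, with 40 positive and an all-gene median of -0.04. In CD8 DTx against CD8 PBS it was 0.42, with 41 positive and an all-gene median of -0.03. Members share a library and its scaling, so they are not replicates, and the first pair of comparisons shares the CD4 PBS libraries. Replicate number 1 is absent from both PBS Tconv groups. It was the highest library for 27 of 47 members in Treg PBS, 37 in CD4 DTx and 20 in CD8 DTx. The shares of all genes were 33.0%, 39.6% and 30.9%. The part of replicate 1 in these medians was not tested.

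**Figure D2:**
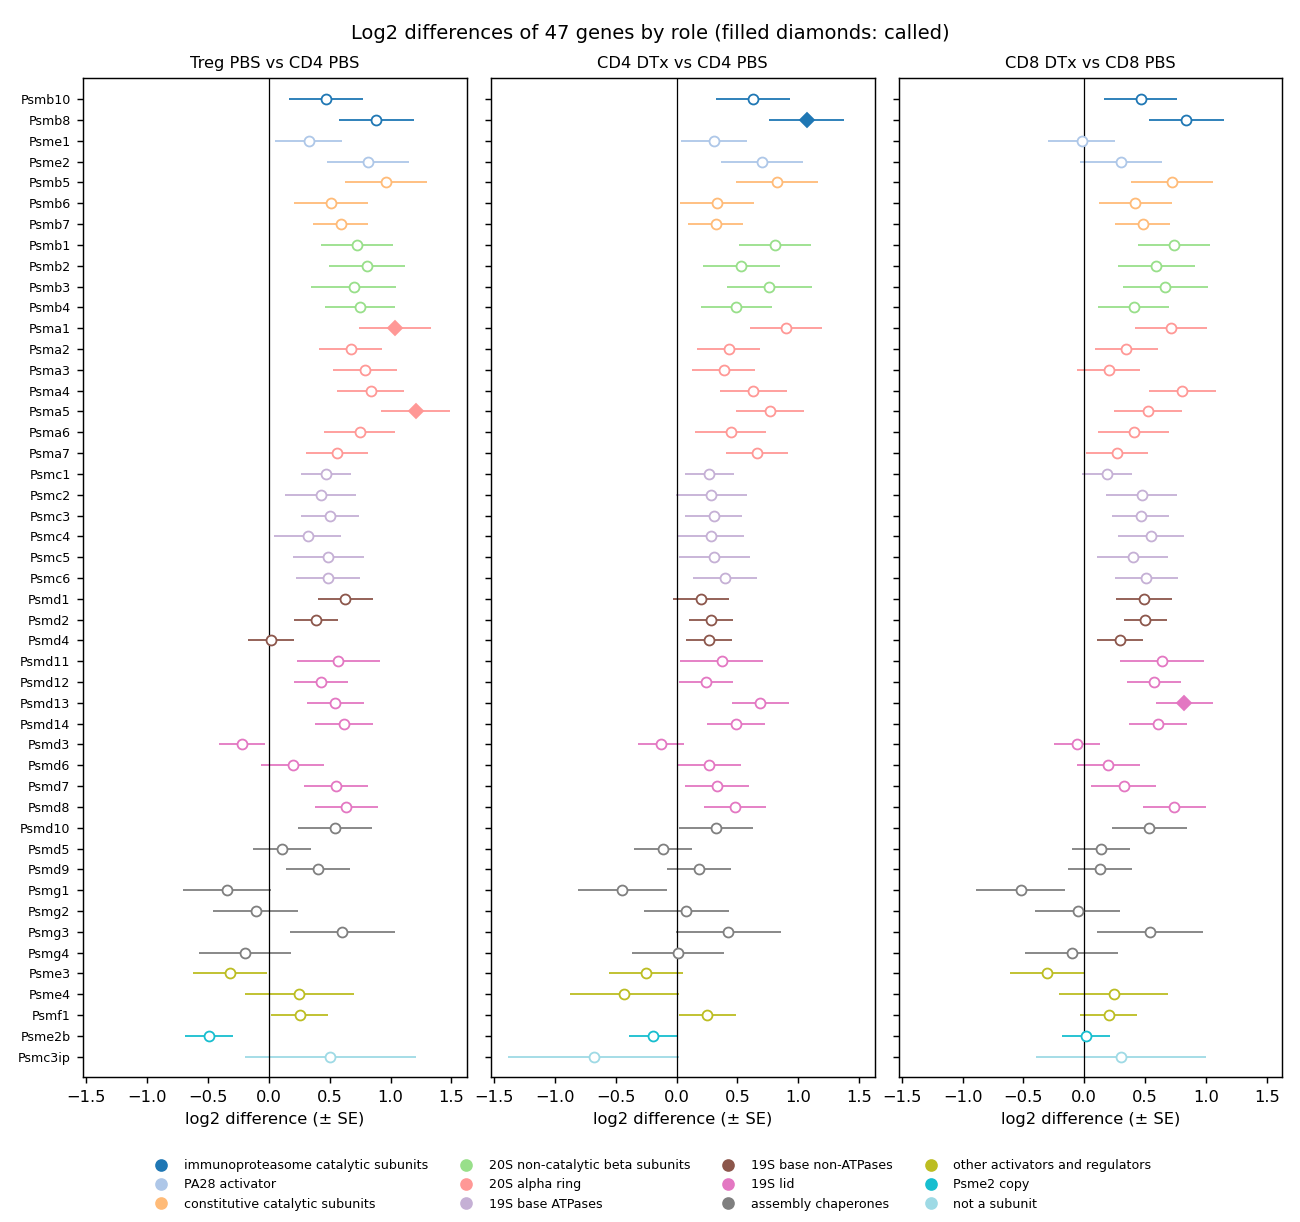
Log2 differences (± SE of the limma fit) of the 47 genes in Treg PBS against CD4 PBS, CD4 DTx against CD4 PBS and CD8 DTx against CD8 PBS, ordered and coloured by role. Filled diamonds are the 4 calls, and most open points lie to the right of 0 in each panel, with Psmg1, Psme3 and Psmd3 to its left in all 3.

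Proliferation markers were also higher in the groups in which most proteasome genes had positive differences. Their summed level was 24774 to 49781 normalized reads in Treg PBS, 8638 to 8788 in CD4 PBS, 9913 to 13325 in CD8 PBS, 12396 to 18904 in CD4 DTx and 26718 to 46368 in CD8 DTx. Of the 8 genes, 7 were called higher in Treg PBS, 5 in CD4 DTx and 7 in CD8 DTx, against 13.5%, 8.64% and 7.4% of all genes. Their part in the proteasome differences was not tested.

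Separation of libraries gave a similar picture for the CD4 comparisons. All Treg PBS libraries lay above both CD4 PBS libraries for 29 members (61.7%), against 29.2% of all genes, and below them for 4 (Psmd3, Psme2b, Psme3 and Psmg1), against 27.4%. All CD4 DTx libraries lay above CD4 PBS for 27 members (57.4%), against 23.4%, and below for 1, Psmg1, against 22.9%. All CD8 DTx libraries lay above CD8 PBS for 16 members (34%), against 22.8%, and below for 0, against 20.8%.

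Psmb8 encodes the chymotrypsin-like subunit of the immunoproteasome. Its level was 31804, 24026 and 16125 normalized reads in Treg PBS replicates 1, 2 and 3, 13726 and 11445 in CD4 PBS replicates 2 and 3, and 30358, 26467 and 22614 in CD4 DTx replicates 1, 2 and 3. It was 16234 and 16665 in CD8 PBS and 33932, 36115 and 20706 in CD8 DTx. The groups did not overlap in any of the 3 main comparisons, and the highest values were those of CD8 DTx replicates 1 and 2.

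In CD4 DTx the Psmb8 mean was 26479.6 ± 3872 normalized reads (SD, n = 3) against 12586 ± 1613 (SD, n = 2) in CD4 PBS. The log2 difference was 1.07 ± 0.31 (SE), a 2.10-fold difference, with a limma adjusted p of 0.0391. Within replicate number the difference was 0.95 for 2 and 0.98 for 3. The call was lost in 12 of 26 alternative settings, with the difference between 0.92 and 1.20 in all of them. Psmb8 was not called in Treg PBS against CD4 PBS (0.88 ± 0.31, limma adjusted p = 0.0613) or in CD8 DTx against CD8 PBS (0.84 ± 0.31, limma adjusted p = 0.105). The exons of Psmb8 overlap Gm20496 on the opposite strand, and strand use in counting is not given.

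Psmb10, which replaces Psmb7 in the immunoproteasome, was not called in the main comparisons. It was at 3349 and 3182 normalized reads in CD4 PBS, 5545, 5428 and 4260.1 in CD4 DTx and 6303, 4473 and 3277 in Treg PBS. It was at 4018 and 4707 in CD8 PBS and 6617, 7931 and 4099.9 in CD8 DTx. CD4 DTx lay wholly above CD4 PBS, with a log2 difference of 0.63 ± 0.30 (95% interval -0.03 to 1.28), while Treg PBS replicate 3 and CD8 DTx replicate 3 overlapped their controls. The difference was 0.47 ± 0.30 in Treg PBS against CD4 PBS and 0.46 ± 0.30 in CD8 DTx against CD8 PBS.

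The constitutive catalytic subunits had positive differences in all 3 main comparisons, and in CD4 DTx those of Psmb6 and Psmb7 were smaller than those of Psmb8 and Psmb10. Psmb5, which Psmb8 replaces, was at 2523 and 1847 normalized reads in CD4 PBS, 4164, 4317 and 3107 in CD4 DTx and 5005, 5118 and 2922 in Treg PBS. In CD8 Tconv cells it was at 3015 and 3012 after PBS and 6170.3, 6482 and 3076 after DTx. Every Treg PBS, CD4 DTx and CD8 DTx library lay above its PBS Tconv control group. Its log2 differences were 0.96, 0.82 and 0.72 (SE 0.34) in the 3 main comparisons, none called. Its window shown above held the antioxidant response element. Psmb6, the caspase-like subunit that Psmb9 replaces, had 0.51, 0.33 and 0.42 (SE 0.30), and Psmb7, the trypsin-like subunit, 0.59, 0.32 and 0.48 (SE 0.23), none called. Psmb6 ranged from 3076 to 7254 normalized reads and Psmb7 from 1191 to 2776 over the libraries.

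Psme1 and Psme2 form the PA28 cap. Psme2 was at 7729 and 6771 normalized reads in CD4 PBS, 15206, 10533 and 10159.8 in CD4 DTx and 18837, 13108 and 8333 in Treg PBS. In CD8 Tconv cells it was at 9238 and 10164 after PBS and 14857, 13639.8 and 8423 after DTx. CD8 DTx replicate 3 was below both CD8 PBS libraries, whereas no Treg PBS or CD4 DTx library was below CD4 PBS. Psme1 was at 8289.6 and 7392 in CD4 PBS, 11113, 9217 and 8903 in CD4 DTx and 13417, 9808 and 7185 in Treg PBS. In CD8 Tconv cells it was at 9569 and 11152 after PBS and 12710.1, 10809 and 7649 after DTx. Treg PBS replicate 3 was below both CD4 PBS libraries for Psme1. Log2 differences of Psme2 were 0.81, 0.70 and 0.30 (SE 0.33), and those of Psme1 0.33, 0.31 and -0.02 (SE 0.27), none called. The direction of the CD8 value of Psme1 changed between scalings, with 0.0021 under TMM factors.

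**Figure D3:**
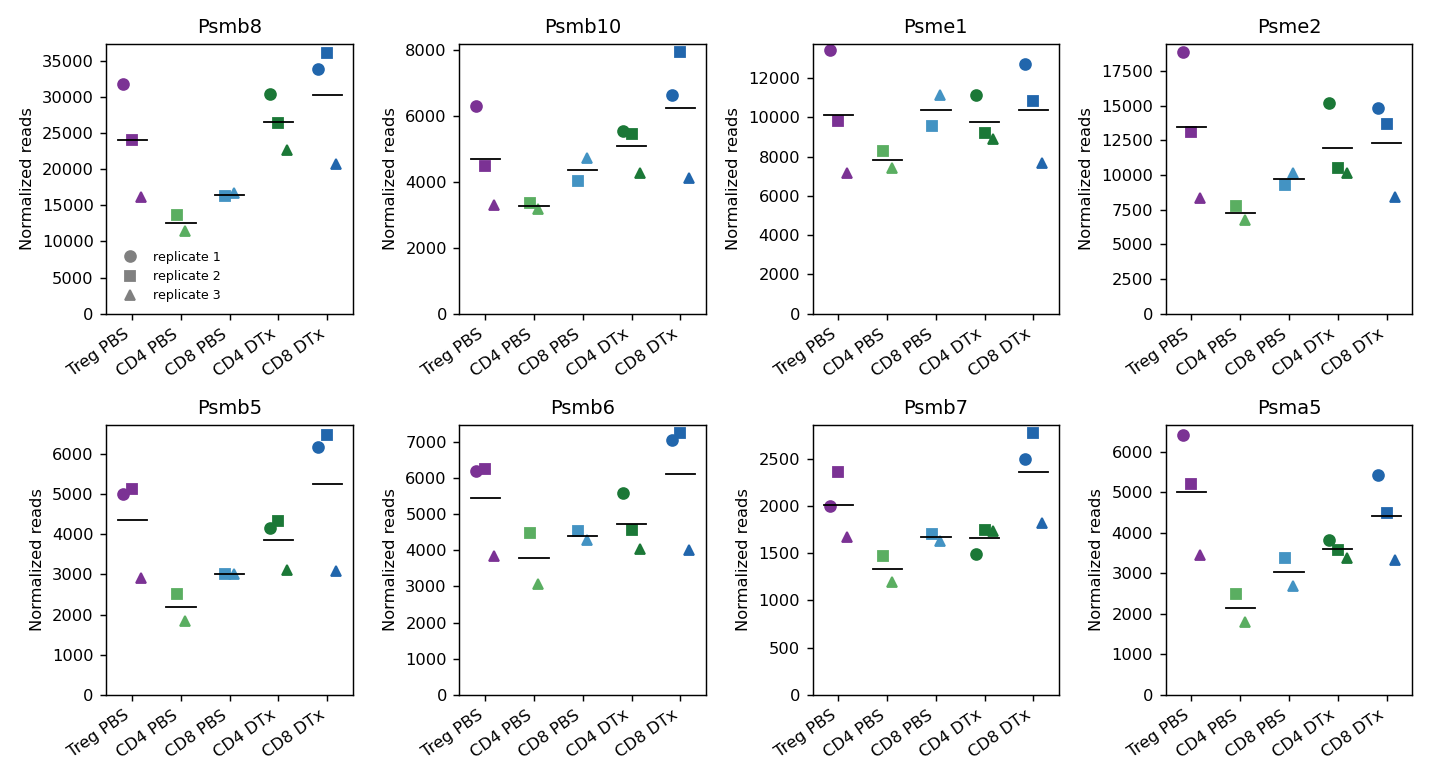
Normalized reads of 8 proteasome genes in each of the 13 libraries, by group, with bars for group means and point shapes for replicate numbers. Psmb8 and Psmb5 lie above the PBS Tconv libraries in every Treg and DTx library compared with them, and triangles (replicate 3) are low in Treg PBS and CD8 DTx.

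Ratios within a library do not depend on its scaling, and were described with no test. The log2 ratio of Psmb8 to Psmb5 was 2.44 and 2.63 in CD4 PBS, 2.87, 2.62 and 2.86 in CD4 DTx and 2.67, 2.23 and 2.46 in Treg PBS. In CD8 Tconv cells it was 2.43 and 2.47 after PBS and 2.46, 2.48 and 2.75 after DTx. CD4 DTx overlapped CD4 PBS by 1 library, replicate 2, and the Treg values spanned those of CD4 PBS. The log2 ratio of Psmb10 to Psmb7 was 1.19 and 1.42 in CD4 PBS and 1.89, 1.63 and 1.30 in CD4 DTx, again overlapping. It was 1.66, 0.92 and 0.97 in Treg PBS, 1.24 and 1.53 in CD8 PBS and 1.41, 1.51 and 1.18 in CD8 DTx. The immunoproteasome subunits and the constitutive subunits they replace were thus not separated by treatment in these ratios.

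Other ratios were picked after the values had been seen, and some separated the libraries. Psme2 to Psmb4 overlapped in each main comparison, and Psme3 to Psme2 in that of CD8 Tconv cells. The log2 ratio of Psmb8 to Psmb4 was 2.24 and 2.43 in CD4 PBS, 2.38 and 2.48 in CD8 PBS and 2.62, 2.34 and 2.44 in Treg PBS. It was 2.91, 2.91 and 2.92 in CD4 DTx and 2.94, 2.80 and 2.85 in CD8 DTx, above all PBS libraries. The log2 ratio of Psme1 to Psme2 was 0.10 and 0.13 in CD4 PBS and 0.05 and 0.13 in CD8 PBS. It was -0.49, -0.42 and -0.21 in Treg PBS, -0.45, -0.19 and -0.19 in CD4 DTx and -0.23, -0.34 and -0.14 in CD8 DTx, so the 4 PBS Tconv libraries were all above 0 and the other 9 all below it. The log2 ratio of Psmb8 to Psmb10 was 2.03 and 1.85 in CD4 PBS and 2.01 and 1.82 in CD8 PBS. It was 2.33, 2.43 and 2.30 in Treg PBS, 2.45, 2.29 and 2.41 in CD4 DTx and 2.36, 2.19 and 2.34 in CD8 DTx, with the same 4 libraries lowest. Reads of Psme2 can be split with its copy Psme2b, and Psme1 exons overlap Emc9 on the opposite strand.

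**Figure D4:**
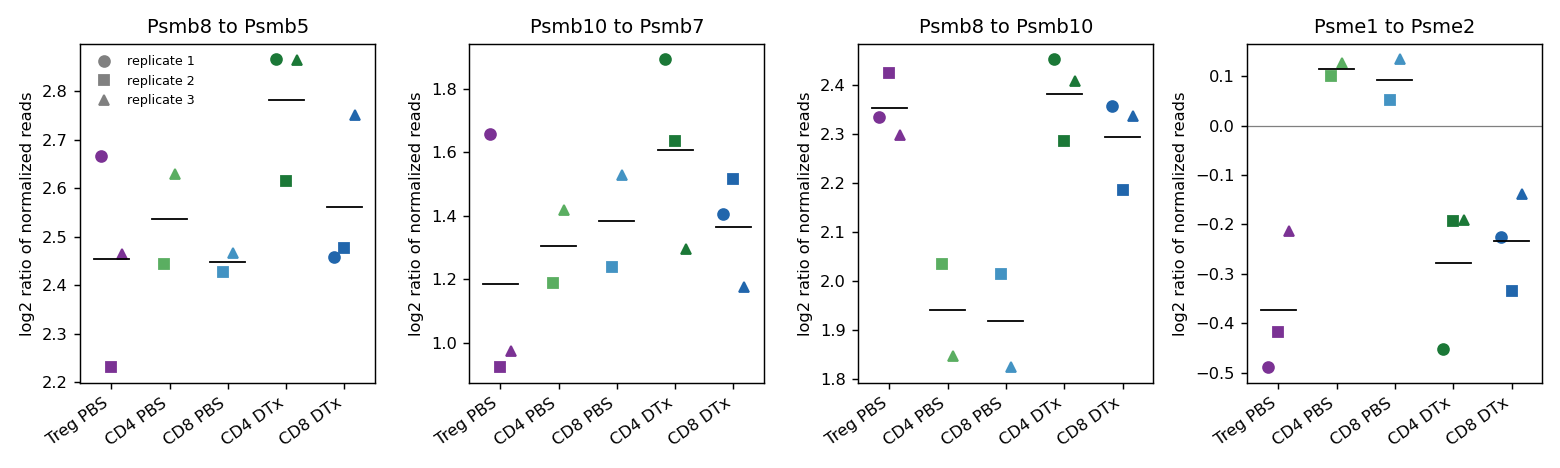
Log2 ratios of normalized reads within each of the 13 libraries, by group, with bars for group means and shapes for replicate numbers. The ratios of an immunoproteasome subunit to the subunit it replaces overlap between groups, whereas Psmb8 to Psmb10 and Psme1 to Psme2 set the 4 PBS Tconv libraries apart from the other 9.

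Psmb8 also took a larger part of the proteasome reads after DTx. Its share of all reads of the 47 genes was 7.83 and 7.32% in CD4 PBS and 8.58 and 8.84% in CD8 PBS. It was 11.5, 11.7 and 11.2% in CD4 DTx and 11.4, 11.9 and 10.8% in CD8 DTx. In Treg PBS it was 10.8, 9.12 and 8.52%. All 6 DTx libraries, replicate 3 included, lay above all 4 PBS Tconv libraries, and Treg PBS overlapped both. This was described after the values had been seen and was not tested. Per kilobase of annotated exon, Psmb8 had the highest mean level of the 47 genes over the libraries, at 14185 normalized reads per kilobase, against 4343 for Psmb5. Psme2 followed at 11586, Psmb10 was at 3708 and Psmb7 at 1597. Lengths came from GENCODE M21, not the build used for counting.

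The 7 alpha-ring genes had the largest median in Treg PBS against CD4 PBS among the proteasome role lists of 3 or more genes, at 0.79, with all 7 positive. Psma5 was at 6417, 5189 and 3436 normalized reads in Treg PBS and 2475 and 1791 in CD4 PBS. The groups did not overlap, and the log2 difference was 1.21 ± 0.28 (SE), a 2.31-fold difference (limma adjusted p = 0.00990). Within replicate numbers 2 and 3 it was 1.07 and 0.94. Psma1 was at 11616, 10433 and 6870.2 in Treg PBS and 5036 and 4173 in CD4 PBS, a log2 difference of 1.04 ± 0.29 (limma adjusted p = 0.0261). These groups did not overlap either. The smallest alpha-ring difference there was 0.56, for Psma7. The exons of Psma5 overlap 1700010K24Rik on the opposite strand.

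After DTx the alpha-ring median was 0.63 in CD4 and 0.41 in CD8 Tconv cells, with all 7 positive in both and none called. In CD4 the differences ran from 0.39 for Psma3 to 0.90 for Psma1. All 7 genes had every CD4 DTx library above CD4 PBS, against 23.4% of all genes. In CD8 they ran from 0.20 for Psma3 to 0.81 for Psma4. CD8 DTx lay wholly above CD8 PBS for 2 of 7 (28.6%), near the 22.8% of all genes. The exons of Psma4 overlap AY074887 on the opposite strand.

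The 4 beta subunits without a catalytic site, Psmb1 to Psmb4, were positive in each main comparison and not called. Their medians were 0.74, 0.65 and 0.63. The largest difference was 0.81 for Psmb2 in Treg PBS, and 0.81 and 0.74 for Psmb1 in CD4 DTx and CD8 DTx. The smallest was 0.70 for Psmb3 in Treg PBS, and 0.49 and 0.41 for Psmb4 in the DTx comparisons. Every CD4 DTx library was above CD4 PBS for all 4, against 23.4% of all genes.

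The 6 ATPases of the base, which unfold substrates, had narrower differences, all positive and none called. Their medians were 0.48 in Treg PBS, 0.29 in CD4 DTx and 0.47 in CD8 DTx. In Treg PBS they ran from 0.32 for Psmc4 to 0.50 for Psmc3, in CD4 DTx from 0.27 for Psmc1 to 0.40 for Psmc6, and in CD8 DTx from 0.19 for Psmc1 to 0.55 for Psmc4. Psmc3 exons overlap Slc39a13 on the opposite strand.

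The 3 other base subunits were Psmd1 and Psmd2, the scaffolds, and Psmd4, a ubiquitin receptor. Psmd4 had the smallest difference in Treg PBS, 0.02, and in CD8 DTx, 0.29, and Psmd1 the smallest in CD4 DTx, 0.20. The largest were 0.63 for Psmd1 in Treg PBS, and 0.28 and 0.50 for Psmd2 after DTx. None was called.

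Of the 8 lid genes, 7 were positive and Psmd3 was negative in each main comparison. Psmd13 was at 2765 and 2618 normalized reads in CD8 PBS and 4937, 5994 and 3634 in CD8 DTx, with no overlap. Its log2 difference was 0.82 ± 0.24 (SE), a 1.77-fold difference (limma adjusted p = 0.0437). Within replicate number it was 1.12 for 2 and 0.47 for 3. The call was lost in 13 of 26 alternative settings, with the difference between 0.62 and 1.02. Psmd13 exons overlap Sirt3 on the opposite strand. It was also the largest lid difference in CD4 DTx, 0.69, and Psmd8 was the largest in Treg PBS, 0.64, neither called.

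Psmd3, a lid scaffold, was the smallest, with -0.22 in Treg PBS, -0.13 in CD4 DTx and -0.06 in CD8 DTx (SE 0.19). It was at 4091, 4466 and 4241 normalized reads in Treg PBS and 5163 and 4757 in CD4 PBS. Those groups did not overlap, but the difference was not called. Psmd3 exons overlap Gm12356 on the opposite strand.

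The 7 assembly chaperones had medians nearer 0, at 0.11, 0.08 and 0.13, and none was called. Psmg3, which helps to build the alpha ring, was the largest in each, with 0.60, 0.42 and 0.54 (SE 0.43). Psmg1, of the same chaperone system, was the smallest, with -0.34, -0.45 and -0.52 (SE 0.37). Psmg1 was at 765, 861 and 324 normalized reads in CD8 DTx against 849 and 869 in CD8 PBS, and replicate 3 was far below the other two. In CD4 DTx it was at 717, 759.7 and 569, below 961 and 887 in CD4 PBS.

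Among the other regulators, Psme3, the nuclear activator PA28 gamma, had negative differences of -0.32, -0.25 and -0.31 (SE 0.30), none called. It was at 4671 and 5003 normalized reads in CD4 PBS, 2699.7, 4938 and 4991 in CD4 DTx and 3605, 3801 and 4257 in Treg PBS. In CD8 Tconv cells it was at 5577 and 6106 after PBS and 3188, 5260.2 and 6236 after DTx. Unlike most members it was highest in replicate 3 of Treg PBS, CD4 DTx and CD8 DTx, and lowest in replicate 1. Psmf1, an inhibitor of the core, had the largest difference of this list in Treg PBS, 0.25, and in CD4 DTx, 0.25. Psme4, an activator of the core, had the smallest in CD4 DTx, -0.43, and the largest in CD8 DTx, 0.24 (SE 0.45). Psme2b differed by -0.49, -0.19 and 0.01, and Psmc3ip by 0.51, -0.68 and 0.30, at 26.2 to 284 normalized reads.

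Replicate 3 stood apart for most members. It was the lowest library for 43 of 47 members in Treg PBS, 42 in CD4 DTx and 43 in CD8 DTx, against 32.0%, 32.6% and 41.0% of all genes. Nfe2l1, a transcription factor of proteasome genes, ran the other way. It was at 431, 576 and 1165 normalized reads in Treg PBS replicates 1, 2 and 3, at 528, 1049 and 1813 in those of CD4 DTx and at 520.1, 769 and 2589.7 in those of CD8 DTx, highest in replicate 3 each time. Summed proliferation markers (8 genes, none at 0) were 28731.5, 49781 and 24774 in Treg PBS replicates 1, 2 and 3. Replicate 3 was thus the lowest for them in Treg PBS. They were 12396, 18904 and 16713 in CD4 DTx and 26718, 46368 and 27651 in CD8 DTx, where replicate 1 was the lowest. Replicate number and sex cannot be told apart in these libraries.

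Within replicate number, the CD4 comparisons leaned the same way in both numbers and the CD8 comparison did not. For Treg PBS against CD4 PBS the median member difference was 0.57 in number 2 (41 of 47 positive) and 0.27 in number 3 (35 positive). For CD4 DTx against CD4 PBS it was 0.25 (39 positive) and 0.27 (35 positive). For CD8 DTx against CD8 PBS it was 0.68 in number 2 (45 positive) and -0.04 in number 3 (23 positive). In number 3 of that comparison Psmb8 still differed by 0.31, while Psmb10 differed by -0.20, Psmb5 by 0.03, Psme2 by -0.27 and Psme1 by -0.54.

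**Figure D5:**
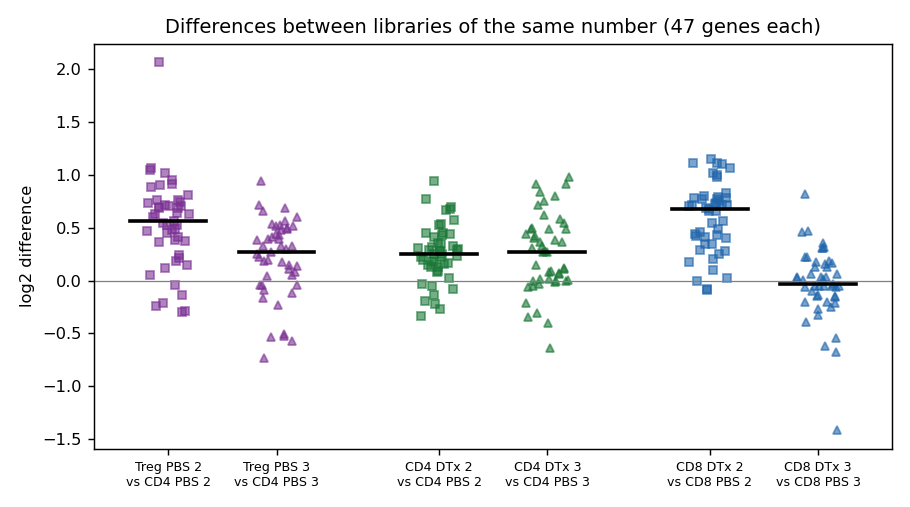
Log2 differences of the 47 proteasome genes between libraries of the same replicate number, with a point per gene and a bar at the median. The medians are 0.57 and 0.27 for Treg PBS, 0.25 and 0.27 for CD4 DTx, and 0.68 and -0.04 for CD8 DTx, where number 3 (triangles) is the male pair.

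Counts of calls rested on single libraries. Without CD8 DTx replicate 3, 18 members were called higher in CD8 DTx against CD8 PBS, against 11.1% of all genes. These were Psma1, Psma4, Psmb1, Psmb5, Psmb7, Psmb8, 4 base ATPases (Psmc2, Psmc3, Psmc4 and Psmc6), Psmd1, Psmd2, the chaperone Psmd10 and 5 lid genes (Psmd8, Psmd11, Psmd12, Psmd13 and Psmd14). Without the same library, whose spread enters the shared fit, 15 were called in Treg PBS against CD4 PBS, against 15.4% of all genes, and 4 in CD4 DTx against CD4 PBS (Psma1, Psmb1, Psmb8 and Psmd13), against 9.98%. Without Treg PBS replicate 3, 13 were called in Treg PBS, against 13.1%. They were 6 alpha-ring genes (Psma1 to Psma6), Psmb2, Psmb3, Psmb4, Psmb5, Psmb8, Psmd14 and Psme2. Without CD4 PBS replicate 3, 0 were called in either CD4 comparison, against 7.51% for Treg PBS and 4.47% for CD4 DTx. Without all 5 male libraries 3 were called in Treg PBS (Psma5, Psmb2 and Psmb5) and 0 after DTx in either cell type, with 1 library left in each PBS Tconv group and its spread taken from the other groups. The shares of all genes were then 5.56% in Treg PBS, 2.46% in CD4 DTx and 0.505% in CD8 DTx.

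No proteasome gene was called between CD4 DTx and Treg PBS. The median log2 difference was -0.14, with 13 of 47 positive and an all-gene median of -0.04. Limma, edgeR and DESeq2 each called 0 members, against 3.36% of all genes higher and 4.55% lower by limma, and 0 passed an unadjusted p under 0.05, against 21.5% of all genes. The libraries did not overlap for 3 members. Psmd4 (6337, 5694 and 5507 normalized reads in CD4 DTx, 5158, 5351 and 4292 in Treg PBS) and Psme2b were higher in CD4 DTx, against 10.2% of all genes. Psmd1 (5459, 5006 and 4622 in CD4 DTx, 6839, 7682 and 5837 in Treg PBS) was lower, against 15.2%, and these 3 were named after their values were seen. The difference was 0.19 (95% interval -0.41 to 0.78) for Psmb8, 0.16 (-0.43 to 0.75) for Psmb10 and -0.14 (-0.80 to 0.52) for Psmb5. It was -0.18 for Psmb6, -0.27 for Psmb7, -0.02 for Psme1 and -0.11 for Psme2. The intervals span both directions. Within number the member medians were -0.11, -0.31 and 0.03 for 1, 2 and 3.

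In PBS-treated mice, without depletion, no proteasome gene separated CD4 from CD8 Tconv cells by the test. The median member difference of CD4 PBS against CD8 PBS was -0.19, with 10 of 47 positive and an all-gene median of 0. Both CD4 PBS libraries lay below both CD8 PBS libraries for 18 members (38.3%), against 21.7% of all genes, and above for 4 (Psmc5, Psmd12, Psme2b and Psmg1), against 20.7%. All 7 alpha-ring genes were negative, with a median of -0.25, while the 6 base ATPases had a median of 0.0049. Differences were -0.39 for Psmb8, -0.41 for Psmb10, -0.40 for Psme1, -0.42 for Psme2, -0.48 for Psmb5, -0.25 for Psmb6 and -0.33 for Psmb7. No member was called by limma, edgeR or DESeq2, 0 passed an unadjusted p under 0.05, against 6.53% of all genes, and the background by limma was 0.245% higher and 0.837% lower. Within numbers 2 and 3 the member medians were -0.10 and -0.20.

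CD4 DTx and CD8 DTx were also compared. The median member difference was -0.17, with 5 of 47 positive and an all-gene median of -0.01. No member was called by limma, edgeR or DESeq2, against 0.75% of all genes higher and 0.892% lower, and 2 (Psmb7 and Psmc3ip) were lower at an unadjusted p under 0.05, which 11.4% of all genes passed in either direction. The libraries of the groups did not overlap for 1 member with CD4 DTx higher, Psme2b, and for the same 2 lower, against 6.02% and 7.88% of all genes. Psmb7 was at 1493, 1748 and 1734 normalized reads in CD4 DTx and 2495, 2776 and 1814 in CD8 DTx, which did not overlap, and its difference was -0.49 ± 0.20 (SE). The difference was -0.16 for Psmb8, -0.25 for Psmb10, -0.38 for Psmb5, -0.33 for Psmb6, -0.07 for Psme1 and -0.02 for Psme2. Within number the medians were -0.18, -0.41 and 0.06 for 1, 2 and 3, with 11, 2 and 34 of 47 positive, so number 3 went the other way.

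The response to DTx could not be distinguished between CD4 and CD8 Tconv cells for any member. In the interaction, 0 members were called by limma, edgeR or DESeq2 and 0 passed an unadjusted p under 0.05, against 4.05% of all genes. Of all genes, 0.0237% were called positive and 0.0237% negative by limma. The differences of response, CD4 minus CD8, had a median of -0.03 and ran from -0.98 to 0.40. For Psmb8 it was 0.23 (95% interval -0.71 to 1.18) and for Psme2 0.40 (-0.63 to 1.43). It was 0.16 for Psmb10, 0.33 for Psme1, 0.10 for Psmb5, -0.09 for Psmb6 and -0.16 for Psmb7. The intervals span both directions and do not show that the responses were alike.

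Partners of the proteasome outside the prefix rule were mostly lower in Treg cells than in CD4 Tconv cells of PBS-treated mice, with a median log2 difference of -0.53 and 10 of 13 negative. The list mixes proteasome parts with regulators of them, so its median describes neither alone. All Treg PBS libraries lay below CD4 PBS for 7 (53.8%), against the 27.4% of all genes given above. They lay above for 1 (7.69%), against 29.2%. The medians after DTx were -0.17 in CD4 (9 negative) and -0.02 in CD8 Tconv cells (7 negative). Of the 13, 1 was called higher (13.5% of all genes) and 2 lower (6.91%) in Treg PBS against CD4 PBS. None was called in the DTx comparisons. Pomp, the chaperone that builds the beta rings, was at 5251, 4596 and 3037 normalized reads in Treg PBS and 2144 and 1970.3 in CD4 PBS, and rose by 1.03 ± 0.33 (limma adjusted p = 0.0471). Its differences after DTx were 0.93 in CD4 and 0.89 in CD8 Tconv cells, not called. Shfm1, a lid subunit named after its values were seen, also had a higher mean in Treg PBS, not called. It was at 4114, 2804 and 1732 normalized reads there and at 1737 and 1128 in CD4 PBS. Nfe2l2, a transcription factor that acts through the antioxidant response element, fell by 1.27 in Treg PBS (limma adjusted p = 0.00878), from 2997 and 3679 in CD4 PBS to 1637, 1229.5 and 1308. Its differences after DTx were -0.85 in CD4 and -0.27 in CD8 Tconv cells, not called. The other call, named after its value was seen, was Ngly1, a deglycosylating enzyme (-0.74, limma adjusted p = 0.00993). Nfe2l1 differed by -0.94, -0.35 and -0.73 and Adrm1, a ubiquitin receptor, by -0.14, -0.13 and 0.22 in the main comparisons, not called.

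Of 16 genes of MHC class I processing, which use the peptides the proteasome makes, 4 were called higher in Treg PBS against CD4 PBS. In CD4 DTx 0 were called and in CD8 DTx 1. The shares of all genes called higher were 13.5%, 8.64% and 7.4%. Their median differences were 0.51, 0.35 and 0.18. B2m, the class I light chain, rose by 1.12 in Treg PBS (limma adjusted p = 0.0467) and Tap1, a subunit of the peptide transporter, by 0.74 (limma adjusted p = 0.0479). Tapbpl and the chaperone Pdia3 were the other two, and Pdia3 was the call in CD8 DTx, both named after their values were seen. Tap2 differed by 0.25, 0.34 and 0.12, and Tapbp by 0.24, 0.21 and -0.03, not called. The interferon pathway gene Irf1 (-0.05, -0.50 and -0.46) and the class I transactivator Nlrc5 (-0.78, -0.13 and -0.77) were not called in any of the 3. Replicates disagreed in the PBS Tconv groups for Irf1 and in CD8 DTx for Nlrc5. Irf1 was at 10133 and 34596 normalized reads in CD4 PBS and 10344 and 28220 in CD8 PBS. All DTx libraries lay between these, at 12020 to 13524. Nlrc5 was at 3313, 2020 and 12938 in CD8 DTx against 7465 and 7659 in CD8 PBS.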

How the data were processed

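RNA of FACS-sorted T cells was sequenced in 13 bulk libraries, grouped by their titles. Per the labels and the study's methods, reads were trimmed with cutadapt, checked with FastQC and aligned with hisat2 to NCBIM37 (mm9), uniquely mapped reads were kept, and values were named FPM with normalization to intergenic reads. The library kit is given as SmartSeq2 in one source and as SMARTer in another. The counter, strand setting and gene filter are not given in the sources used here, so genes with overlapping or near-identical neighbours are uncertain. The exons of 9 members overlap a gene on the opposite strand and those of 4 one on the same strand.

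The deposited signal values were not scaled to a fixed total: every value in a library was a whole number of reads divided by 1 size factor, within 0.01 read. They are called normalized reads, and 3 reads was taken as the floor. Replicates were not the same library deposited again, since chi-square over degrees of freedom was 43.5 to 244 for pairs within a group. Symbols turned into dates (21) name no member.

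Values were tested as log2(value + 1), so fold changes are on that scale and understate those of low genes. limma 3.58.1 in R 4.3.3 (trended eBayes, 1 mean per group) was fitted over 12667 genes with 10 or more normalized reads in at least 2 libraries, after a test on simulated data. Alternatives were edgeR 4.0.16 quasi-likelihood and DESeq2 1.42.0 on the recovered reads, other scalings, filters and pseudocounts, a replicate block, and leaving out libraries. Ratios and lengths used Python 3.11.15 and GENCODE M21.

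The members and lists were chosen with earlier results of these data known. Named throughout were Psmb5 to Psmb8, Psmb10, Psme1 and Psme2, all members called in the 3 main comparisons, the largest and smallest difference of each role list in them, fixed partner genes, and lineage genes for the label check. Deviations from the group means went together in same-numbered libraries of the DTx groups (r = 0.360, 0.207 and 0.590 over all genes). These groups were therefore taken as paired in a further fit with a replicate block, which left 0 members called between them. The values given for these groups and for the interaction come from the fit without it, except where the block is named. Some listed genes are not reported here.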

Additional observations from a re-analysis of the deposited data

How the results depend on the processing

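The comparisons of CD4 DTx with Treg PBS, CD4 PBS with CD8 PBS and CD4 DTx with CD8 DTx, and the interaction, had 0 members called in each of 28 alternatives. The other counts (2, 1 and 1 for Treg PBS, CD4 DTx and CD8 DTx against their PBS Tconv controls) depended on the processing, and the cause was not tested. Leaving out 1 library gave 0 to 15, 0 to 4 and 0 to 18, while 7.51% to 15.4%, 4.47% to 9.98% and 1.37% to 11.1% of all genes were called higher. The Treg PBS count was 0 without CD4 PBS replicate 3, 1 without Treg PBS replicate 1 or 2 or CD4 PBS replicate 2, 4 without CD8 DTx replicate 1, 13 without Treg PBS replicate 3 and 15 without CD8 DTx replicate 3. The CD4 DTx count was 0 without Treg PBS replicate 2 or any single CD4 PBS, CD8 PBS or CD4 DTx library, 2 without Treg PBS replicate 3 and 4 without CD8 DTx replicate 3. The CD8 DTx count was 0 without Treg PBS replicate 1, CD4 DTx replicate 2 or 3, CD8 DTx replicate 1 or 2, or any single CD4 PBS or CD8 PBS library, and 18 without CD8 DTx replicate 3. Without replicate 3 of both DTx groups the counts were 14, 5 and 17, against 15.3%, 9.13% and 10.9% of all genes called higher. Without all male libraries, an alternative chosen after seeing the data, they were 3, 0 and 0, against 5.56%, 2.46% and 0.505%.

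Fitting only the groups compared gave 0, 0 and 0, no mean trend gave 1, 0 and 0, and DESeq2 gave 12 (11 of them higher), 4 and 5, against 16.6%, 12.4% and 10.8% of all genes called higher. A pseudocount of 10 and a filter of 100 each gave 4 in Treg PBS, no filter gave 0 in CD4 DTx, and equal column sums gave 0 in CD8 DTx. A required absolute log2 fold change above 1 gave 0 in CD8 DTx, and one above 2 gave 0 in all 3. Shares of all genes called higher are given as ranges over the 13 alternatives other than leaving out 1 library, with no fold minimum. They were 5.56% to 16.6% in Treg PBS, 2.46% to 12.4% in CD4 DTx and 0.505% to 10.9% in CD8 DTx. Except for DESeq2, the share at each setting above is not given, so its count can be read only against these ranges. Counts with a required fold change cannot be read against them. With a replicate block the counts were 12, 7 and 3, against 16.2%, 10.7% and 9.75% of all genes called higher. In these comparisons same-numbered samples share a number and, by the sex-linked genes, the sex. The study states that replicates were isolated on independent days, but not which libraries share a day. Same-numbered libraries correlated over all genes at 0.0988 and 0.102 for Treg PBS and CD4 PBS. The correlations were -0.210 and -0.311 for CD4 PBS and CD4 DTx, and 0.0839 and -0.0061 for CD8 PBS and CD8 DTx. For Treg PBS and CD4 DTx the values were 0.252, 0.0366 and 0.215, and for CD4 PBS and CD8 PBS 0.189 with number 2 or 3. The block changed no other count.

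Psma5 kept its call in 24 of 26 alternatives and Psma1 in 19. Of the values described, the difference of Psme1 in CD8 DTx, -0.02, changed sign to 0.0021 with TMM factors, 0.031 with edgeR, 0.18 without replicate 3 of both DTx groups and 0.29 without the male libraries, and ran from -0.18 to 0.18 when 1 library was left out. Each PBS Tconv group had 2 libraries, and whether their number or read depth limits the precision was not tested.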
